A study of Mus musculus with 2 samples.

Results

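The genes described here encode 38 enzymes or enzyme-like proteins that use Fe(II) and 2-oxoglutarate: the Tet DNA dioxygenases, the JmjC histone demethylases and their relatives, the AlkB family, and several protein hydroxylases. They were taken by name from a list, and all 38 are among the 14366 genes of both deposited tables. The tables come from cultured mouse haematopoietic stem cells (HSC), sorted from bone marrow as lineage-negative, Sca-1+, c-Kit+, CD150+, CD48- cells. Marrow came from wild-type C57/B6 mice aged 6 to 8 weeks, and 8 mice were pooled. The culture medium held, among other supplements, 100 ng/ml stem cell factor (SCF). For 48 h they received either vehicle, which was sterile water, or 10 µM deferoxamine (DFO), an iron chelator. Each condition is 1 droplet library made with the 10x Genomics 3′ v3 chemistry. The labels do not say whether both libraries began from the same sort.

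Enzymes of this superfamily hold Fe(II) in the active site and couple the oxidation of a substrate to the decarboxylation of 2-oxoglutarate, which gives succinate and carbon dioxide. Some act on DNA, RNA or histone tails and so remove methyl marks, and others hydroxylate proteins, including the oxygen-sensing prolyl and asparaginyl hydroxylases that act on hypoxia-inducible factor (HIF). Iron chelation is known to limit their catalytic activity in cell culture. Activity was not measured here: the data are transcript levels.

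The vehicle library held 8708 cells with 260938938 molecules, and the DFO library 9852 cells with 284326017. Median depth was 27805.5 and 27114 unique molecules per cell, the median number of genes was 5097 and 5056, and the median mitochondrial share was 3.88% and 4.4%. Only 24 cell barcodes occurred in both libraries. Of 21 HSC markers, all were in the tables and 18 had a mean of 5 CPM (molecules of a gene per 1000000 of the library) or more. Their summed level was 1982 CPM for vehicle and 1954 CPM for DFO. Against the sort stood Cd48, the gene of a surface protein gated out, at 103.3 and 108.2 CPM after culture. Megakaryocyte markers summed to 2098 CPM in vehicle and 1097 CPM in DFO, where each of the 13 was lower. The summed levels were 544 and 506 CPM for erythroid markers, 263.3 and 240.7 CPM for neutrophil-monocyte markers, and 10.44 and 6.834 CPM for mast cell or basophil markers. Lymphoid markers summed to 8.669 and 8.779 CPM, macrophage or dendritic cell markers to 2.131 and 1.984 CPM, eosinophil markers to 0.07281 and 0.07034 CPM, and stromal or endothelial markers to 48.17 and 45.12 CPM. These sums cover only markers in the tables: 2 of 9 lymphoid, 3 of 8 macrophage or dendritic cell, 1 of 5 eosinophil and 5 of 8 stromal or endothelial. For erythroid and for neutrophil-monocyte markers 9 of 12 were in the tables, and for mast cell or basophil markers 6 of 7. Low sums of mostly missing markers do not show that a lineage was absent.

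With 1 library per condition there is no replicate check of any difference between conditions, and no test was possible. Levels are molecules summed over the cells of a library, as CPM over all genes. Intervals are exact 95% Poisson intervals of those sums, or exact 95% Clopper-Pearson intervals for shares, and cover counting error only. Differences are log2 ratios of DFO over vehicle with 1 CPM added to each. Because the assay counts transcript 3′ ends, levels of different genes were compared without division by length. In summed libraries, fewer cells of a type and less RNA per cell cannot be told apart.

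Upstream sequences are shown for the 4 genes whose transcripts lay on the same side in DFO in every cluster of cells, lower for Kdm5b and Tet2 and higher for Tet1 and Alkbh1. Each runs 5′ to 3′ on the gene's strand, from 250 bases before to 50 after the RefSeq start on GRCm38.p6. Capitals mark matches to ACGTG or GCGTG, the core letters bound by HIF, or to their reverse complements CACGT and CACGC.
Kdm5b, chr1:134559928-134560227, plus strand: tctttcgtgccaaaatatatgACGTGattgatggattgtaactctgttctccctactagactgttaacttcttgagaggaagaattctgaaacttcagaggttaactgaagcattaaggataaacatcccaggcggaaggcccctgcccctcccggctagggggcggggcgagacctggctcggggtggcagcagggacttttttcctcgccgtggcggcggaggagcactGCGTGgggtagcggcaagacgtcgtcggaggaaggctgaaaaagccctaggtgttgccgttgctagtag
Tet2, chr3:133544341-133544640, minus strand: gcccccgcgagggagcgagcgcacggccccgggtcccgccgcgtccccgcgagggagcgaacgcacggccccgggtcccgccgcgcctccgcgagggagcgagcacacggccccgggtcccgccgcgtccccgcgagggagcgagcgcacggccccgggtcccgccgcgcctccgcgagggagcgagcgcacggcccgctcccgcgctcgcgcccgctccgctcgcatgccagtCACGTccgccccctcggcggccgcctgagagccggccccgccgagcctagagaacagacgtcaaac
Tet1, chr10:62887275-62887574, minus strand: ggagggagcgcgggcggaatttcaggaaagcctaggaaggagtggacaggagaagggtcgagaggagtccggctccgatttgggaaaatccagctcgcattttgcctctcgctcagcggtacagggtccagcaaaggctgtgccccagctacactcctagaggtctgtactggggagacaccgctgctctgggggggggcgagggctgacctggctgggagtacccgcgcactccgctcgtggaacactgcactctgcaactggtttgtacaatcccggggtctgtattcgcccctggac
Alkbh1, chr12:87443790-87444089, minus strand: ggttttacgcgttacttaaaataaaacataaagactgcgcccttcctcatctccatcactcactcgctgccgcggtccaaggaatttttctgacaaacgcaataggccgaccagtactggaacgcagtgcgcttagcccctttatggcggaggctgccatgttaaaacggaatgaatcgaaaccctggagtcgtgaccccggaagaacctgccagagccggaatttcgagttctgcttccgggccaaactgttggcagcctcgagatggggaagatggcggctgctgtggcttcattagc
The Kdm5b window held matches at bases 22 and 232, the Tet2 window held 1 at base 235, and the windows of Tet1 and Alkbh1 held none. In the GENCODE annotation the minus-strand Tet1 gene begins at 62908996 and the minus-strand Tet2 gene at 133545139. The windows of Tet1 and Tet2 therefore lie inside those genes and do not cover the sequence before their annotated starts. The annotated starts of Kdm5b and Alkbh1 lie within their windows, at 134560171 and 87444017. Among the 31 listed genes with a promoter in the RefSeq table, 18 had a match (58.1%), beside 4744 of 7099 expressed genes with a promoter of the same length (66.8%). A match describes letters in the window, not a bound site.

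Transcripts of the dioxygenases spanned a wide range of levels. The mean of both libraries ran from 1.47 CPM for P4htm to 68.5 CPM for Alkbh1, with a median of 14.5 CPM over the 38 genes, beside 10.8 CPM over all 14366. A mean of 5 CPM or more was reached by 34 of the 38. Alkbh4 was the lowest above that minimum, with 5.49 CPM in vehicle and 4.87 CPM in DFO. Kdm7a was the highest below it, with 3.39 and 3.10 CPM. Beneath Kdm7a lay Kdm8, P4htm and Tmlhe. In the vehicle library the order began with Alkbh1 at 64.14 CPM (63.17 to 65.12), Jmjd6 at 61.68 CPM (60.73 to 62.64) and Asph at 60.34 CPM (59.4 to 61.29). The intervals of Alkbh1 and Jmjd6 did not overlap, while those of Jmjd6 and Asph did. In the DFO library Alkbh1 led by more, at 72.77 CPM (71.78 to 73.77) against 59.56 CPM (58.66 to 60.46) for Jmjd6.

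**Figure D1:**
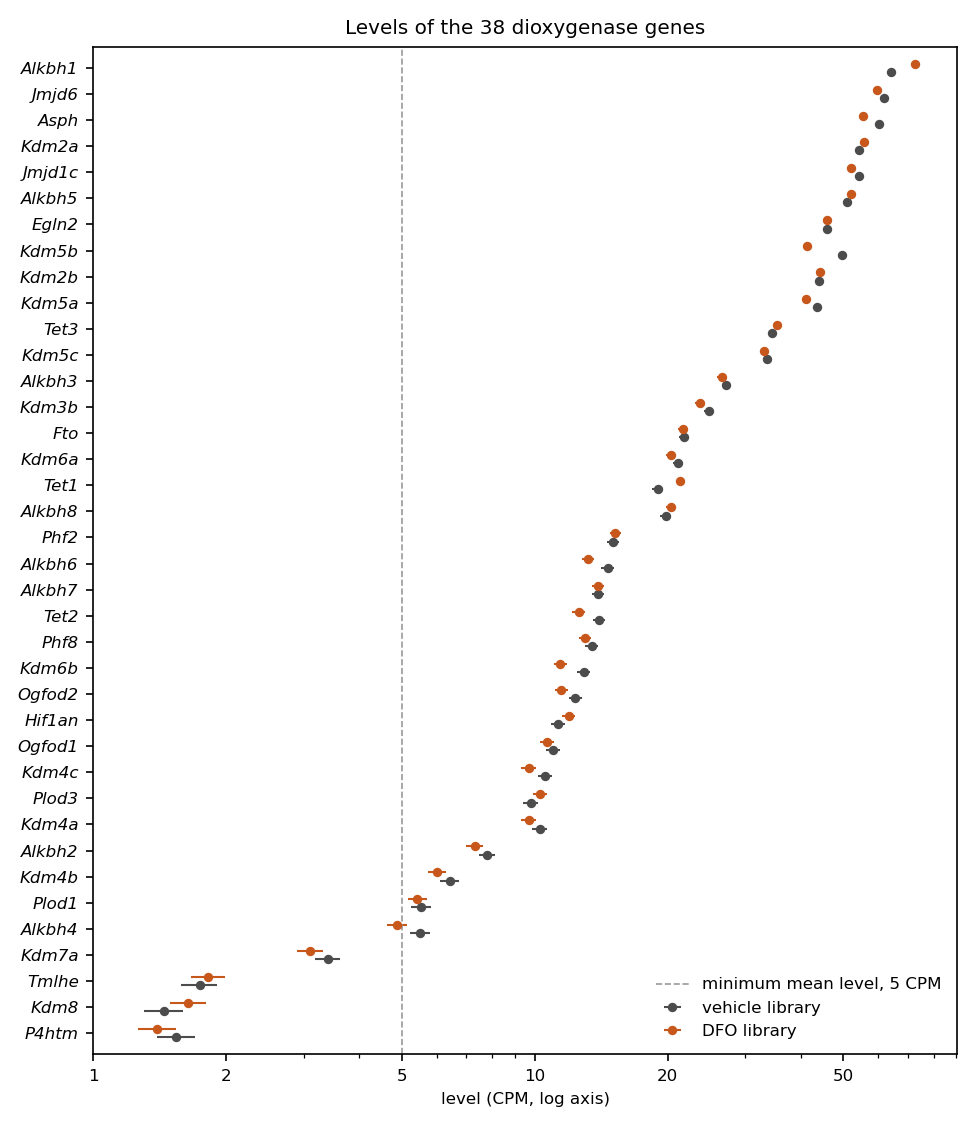
Level of each of the 38 dioxygenase genes in the vehicle and DFO libraries, in CPM on a log axis, ordered by mean level. Points are summed molecules as CPM, bars are exact 95% Poisson intervals, and the dashed line is the 5 CPM minimum, which 34 genes reach.

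Most of the 34 genes differed little between the libraries. In DFO 12 were higher and 22 lower, with a median log2 difference of -0.044, beside 0.019 over all 8886 genes at 5 CPM or more, of which 5144 were higher and 3742 lower. None was higher by 0.25 or more, beside 1.4% of all genes. Kdm5b was the 1 gene lower by 0.25 or more, beside 2.58% of all genes. Its difference of -0.26 did not reach that size with equal cluster shares (-0.23), in male cells alone (-0.24) or with a pseudocount of 10 CPM (-0.22). At 0.1 or more, 2 were higher, Tet1 and Alkbh1, beside 19.2% of all genes. At the same size 7 were lower, Kdm5b, Kdm6b, Tet2, Alkbh4, Alkbh6, Asph and Kdm4c, which is 20.6% of the 34 beside 14% of all genes. Poisson intervals lay apart for 2 genes with the DFO library higher and 11 with it lower. Among all genes these shares were 32.7% and 21.4%, since counting error at this depth is small.

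**Figure D2:**
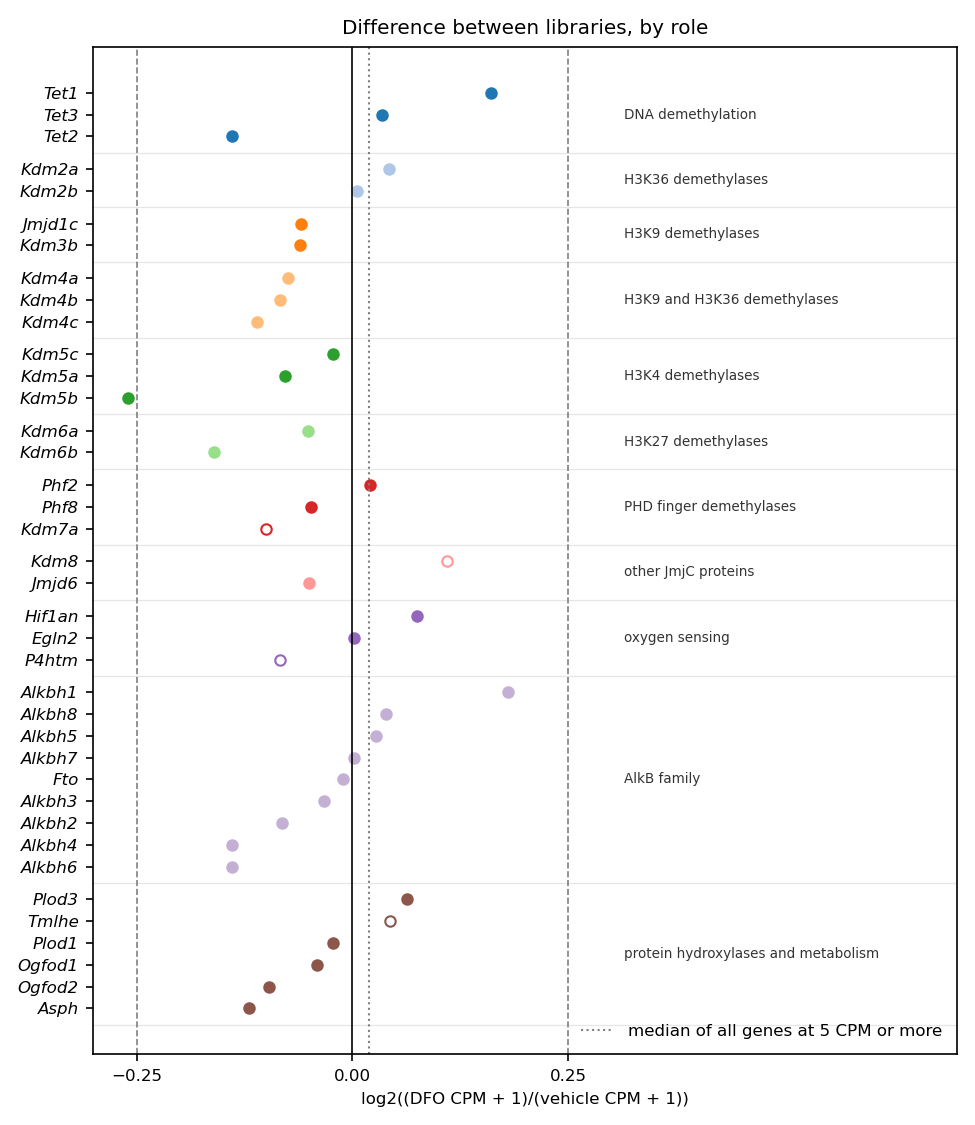
Log2 difference between the DFO and vehicle libraries, with 1 CPM added, for each gene grouped by role. Open circles are the 4 genes under 5 CPM, dashed lines mark 0.25 either way, and the dotted line is the median of all 8886 genes, 0.019. Kdm5b alone lies past a dashed line, at -0.26, and it does not with equal cluster shares (-0.23).

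The Tet enzymes oxidise 5-methylcytosine in DNA, the first step of active demethylation, and Tet2 is a known restraint on HSC self-renewal and a gene often lost in clonal haematopoiesis. Their transcripts went different ways. Tet1 had 18.99 CPM in vehicle and 21.36 CPM in DFO, a difference of 0.16. Tet2 had 13.98 CPM (13.53 to 14.45) in vehicle and 12.56 CPM (12.15 to 12.97) in DFO, a difference of -0.14. Intervals did not overlap for either gene. Tet3, the most abundant of the family here, had 34.47 and 35.32 CPM, and its intervals overlapped.

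Among the demethylases of histone H3 lysines, those of the Kdm5 family remove methyl groups from H3K4, a mark of active promoters. Kdm5b had 49.61 CPM (48.76 to 50.48) in vehicle and 41.32 CPM (40.57 to 42.07) in DFO, or 1.49 and 1.19 molecules per cell, a difference of -0.26. The gene lies on chromosome 1 at 134560171 to 134635285, plus strand, of GRCm38. Its difference stood at percentile 2.36 of all 8886 genes, counted from the lowest. Kdm5a had 43.48 and 41.13 CPM, a difference of -0.08, and Kdm5c 33.54 and 33.00 CPM, a difference of -0.02. Kdm5b stood above Kdm5a in vehicle with intervals apart, and in DFO their intervals overlapped (40.57 to 42.07 and 40.39 to 41.88 CPM).

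Kdm6a and Kdm6b demethylate H3K27, the Polycomb mark. Kdm6b, an inducible member of the pair, had 12.90 CPM in vehicle and 11.42 CPM in DFO, a difference of -0.16 with intervals apart. Kdm6a had 21.13 and 20.36 CPM, with intervals that overlapped. Of the Kdm4 enzymes, which act on H3K9 and H3K36, Kdm4c differed by -0.11 (10.55 and 9.68 CPM), Kdm4b by -0.08 (6.42 and 6.00 CPM) and Kdm4a by -0.07 (10.25 and 9.68 CPM). All 3 were lower in DFO, and intervals lay apart for Kdm4c alone.

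The H3K9 enzymes Kdm3b (24.74 and 23.67 CPM) and Jmjd1c (54.29 and 52.04 CPM) each differed by -0.06. The H3K36 enzymes Kdm2a (54.17 and 55.78 CPM) and Kdm2b (44.11 and 44.28 CPM), whose CXXC domains bind unmethylated CpG DNA, differed by 0.04 and 0.01. In the PHD finger group, Phf2 had 15 and 15.23 CPM, Phf8 13.45 and 12.98 CPM, and Kdm7a 3.39 and 3.10 CPM. Jmjd6, a nuclear JmjC lysyl hydroxylase linked to splicing factors, had 61.68 and 59.56 CPM. Kdm8 had 1.44 and 1.64 CPM. Of the histone demethylases, Kdm5b alone passed 0.25, and it did not with a pseudocount of 10 CPM (-0.22). Among all genes, 1.4% were higher and 2.58% lower by that much.

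The AlkB family contains DNA repair enzymes and RNA demethylases. Alkbh1, which acts on methylated tRNA and DNA, had 64.14 CPM in vehicle and 72.77 CPM in DFO, or 1.92 and 2.1 molecules per cell. Its difference of 0.18 stood at percentile 95.1 of all genes. The gene lies on chromosome 12 at 87425840 to 87444017, minus strand. The m6A erasers Alkbh5 (51.07 and 52.06 CPM) and Fto (21.79 and 21.62 CPM) differed by 0.03 and -0.01, with intervals that overlapped. Lower levels in DFO were seen for Alkbh4 (5.49 and 4.87 CPM) and Alkbh6 (14.61 and 13.21 CPM), each at -0.14. The DNA repair enzymes Alkbh2 (7.79 and 7.31 CPM) and Alkbh3 (27.14 and 26.50 CPM) differed by -0.08 and -0.03. For the mitochondrial Alkbh7 (13.88 and 13.91 CPM) and the tRNA-modifying Alkbh8 (19.79 and 20.36 CPM) the differences were 0.00 and 0.04.

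The oxygen sensors on the list were nearly level. Hif1an, the asparaginyl hydroxylase of HIF alpha subunits, had 11.27 and 11.93 CPM, and the prolyl hydroxylase Egln2 had 45.83 and 45.90 CPM. The endoplasmic reticulum relative P4htm had 1.54 and 1.40 CPM. Of the remaining hydroxylases, Asph, which hydroxylates EGF-like domains, had 60.34 CPM (59.4 to 61.29) in vehicle and 55.27 CPM (54.41 to 56.14) in DFO, a difference of -0.12. The collagen lysyl hydroxylases Plod1 (5.53 and 5.42 CPM) and Plod3 (9.79 and 10.27 CPM) differed by -0.02 and 0.06. Ogfod1, a ribosomal protein hydroxylase, had 11 and 10.66 CPM, Ogfod2 12.35 and 11.48 CPM, and the carnitine synthesis enzyme Tmlhe 1.74 and 1.82 CPM.

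Cells were grouped into 9 clusters without the use of any dioxygenase gene on either list, so levels across clusters were not built into the grouping. HSC markers led cluster 1 (HSC-like, 17.7% of vehicle and 16.4% of DFO cells). Megakaryocyte markers were among the leading genes of cluster 2 (megakaryocyte-like, 19.1% and 13.2%), and neutrophil-monocyte markers led cluster 8, with 96 and 84 cells. The leading genes of cluster 8 also held Mcpt8, a mast cell or basophil marker seen in 39.4% of its cells. Cluster 5 (erythroid-like, 12.2% and 10.4%) was named from 2 erythroid markers, Klf1 and Aqp1, among its leading genes. Lpl, Slc7a8 and Fgf3 stood first there, and Slc7a8 and Fgf3 were also leading genes of cluster 7. Clusters 0, 3, 4, 6 and 7 stayed unnamed. Cluster 0 was led by mitotic genes such as Nusap1 and Ube2c, and cluster 3 by genes that include Hist1h1b and Gem. Cluster 7 had Il1rl1 and Gzmb among its leading genes, and cluster 4 had Dnajb9. Cluster 6 was shallow, with a median of 6991.5 molecules per cell and a mitochondrial share of 6.83%, and is described apart.

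Within clusters the direction of 4 genes was uniform. Kdm5b was lower in DFO in all 9 clusters, by -0.06 in cluster 3 to -0.43 in the erythroid-like cluster, where it had 47.37 CPM in vehicle and 34.90 CPM in DFO. In HSC-like cells Kdm5b had 57.63 CPM (55.14 to 60.2) and 47.81 CPM (45.57 to 50.12), a difference of -0.26. Intervals of Kdm5b lay apart in clusters 0, 1, 2, 4, 5 and 7 and overlapped in clusters 3, 6 and 8. Tet2 was also lower in all 9, by -0.03 to -0.36, but its intervals overlapped in each cluster. Lower values in all clusters were seen for these 2 of the 34 genes, beside 6.26% of all genes.

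Alkbh1 was higher in DFO in all 9 clusters, by 0.01 in cluster 8 to 0.44 in cluster 6, and its intervals lay apart in clusters 0 to 6. In HSC-like cells it had 59.74 and 67.94 CPM. Tet1 was likewise higher in all 9, with intervals apart in the megakaryocyte-like cluster (13.36 and 16.68 CPM) and in cluster 7 (14.89 and 21.46 CPM). HSC-like cells showed little of this for Tet1, with 23.43 and 23.74 CPM. Higher values in all clusters were seen for these 2 of the 34 genes, beside 13% of all genes.

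**Figure D3:**
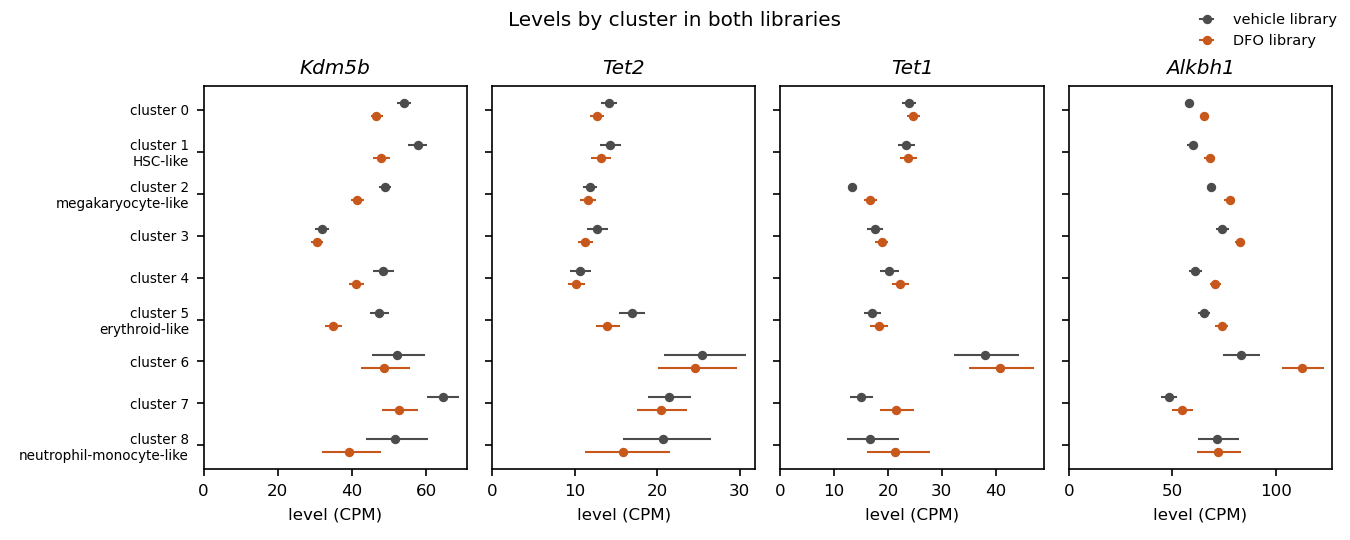
Level of Kdm5b, Tet2, Tet1 and Alkbh1 in each of the 9 clusters, in CPM, for the vehicle and DFO libraries. Points are summed molecules as CPM and bars exact 95% Poisson intervals. Kdm5b points lie lower and Alkbh1 points higher in the DFO library in each cluster. Bars overlap in clusters 3, 6 and 8 for Kdm5b, in clusters 7 and 8 for Alkbh1, and throughout for Tet2.

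Asph went different ways in different clusters. It was higher in DFO in the megakaryocyte-like cluster (71.41 and 77.88 CPM, 0.12) and in cluster 4 (41.90 and 46.87 CPM, 0.16), and lower in the erythroid-like cluster (96.26 and 85.11 CPM, -0.18), with intervals apart in each. In the other 6 clusters intervals overlapped. The 3 clusters in which Asph stood highest apart from the shallow one, clusters 7, 5 and 2, each held a smaller share of DFO than of vehicle cells (3.13% and 4.98%, 10.4% and 12.2%, 13.2% and 19.1%). With equal cluster shares in both libraries, the difference of Asph was -0.02 in place of -0.12, that of Kdm5b -0.23, that of Tet1 0.12 and that of Alkbh1 0.19.

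Across clusters other than the shallow one, 6 of the 34 genes had a highest cluster at least 1.5-fold above the lowest, with the same highest and lowest cluster in both libraries: Tet2, Kdm5b, Alkbh1, Alkbh2, Ogfod1 and Asph. That is 17.6% of the 34, beside 22.7% of all genes. These calls moved with the settings. At resolution 0.25 Tet2, Kdm5b, Alkbh1 and Ogfod1 were no longer called, at resolution 1 only Kdm5b and Asph of the 6 were, and with 15 principal components Alkbh1 and Ogfod1 were not. With cells thinned to 10000 molecules only Tet2 of the 34 genes was called, beside 18.3% of all genes. Even so, the log2 spans of Alkbh2 were then 2.05 in vehicle and 2.51 in DFO, and those of Asph 1.68 and 1.95. The widest span of the 34 was that of Alkbh2, which reverses alkylation damage in double-stranded DNA. Alkbh2 had 13.5 CPM (12.31 to 14.77) in HSC-like cells of the vehicle library and 3.10 CPM (2.22 to 4.22) in cluster 7, and 12.16 and 2.40 CPM in the DFO library. Its next highest level was in cluster 4, at 11.13 and 10.54 CPM, and its level in the mitotic cluster 0 was 4.76 and 4.24 CPM. The cluster 7 values rest on 40 and 21 molecules.

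Asph was highest where Alkbh2 was lowest. Its level in cluster 7 was 117.5 CPM in vehicle and 110.5 CPM in DFO, followed by the erythroid-like cluster at 96.26 and 85.11 CPM. HSC-like cells had 47.24 and 45.18 CPM, and the lowest levels were in cluster 8, at 35.34 and 34.44 CPM, and in cluster 3, at 36.23 and 35.48 CPM. Intervals of clusters 3 and 8 overlapped. Kdm5b was also highest in cluster 7 (64.36 and 52.73 CPM) and was lowest in cluster 3 (31.89 and 30.53 CPM). Leaving the shallow cluster aside, HSC-like cells came next to cluster 7 for Kdm5b in both libraries. Their Kdm5b intervals overlapped those of clusters 0, 7 and 8 in both libraries, so this rank is not clear.

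The ranks that follow again leave out the shallow cluster, where Tet2, Alkbh1, Ogfod1 and Kdm7a stood above the highest levels given here. Tet2 was highest in cluster 7 (21.4 and 20.43 CPM) and lowest in cluster 4 (10.68 and 10.18 CPM), with HSC-like cells at 14.30 and 13.16 CPM. Alkbh1 ran from 74.1 and 82.6 CPM in cluster 3 to 48.39 and 54.67 CPM in cluster 7. Ogfod1 ran from 13.81 and 13.49 CPM in megakaryocyte-like cells to 8.31 and 8.42 CPM in HSC-like cells. Jmjd6 was highest in megakaryocyte-like cells (79.62 and 75.66 CPM), but its lowest cluster differed between libraries. Under the minimum, Kdm7a was highest in HSC-like cells among these clusters, at 5.71 and 5.47 CPM. In the shallow cluster it had 6.49 and 10.25 CPM.

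**Figure D4:**
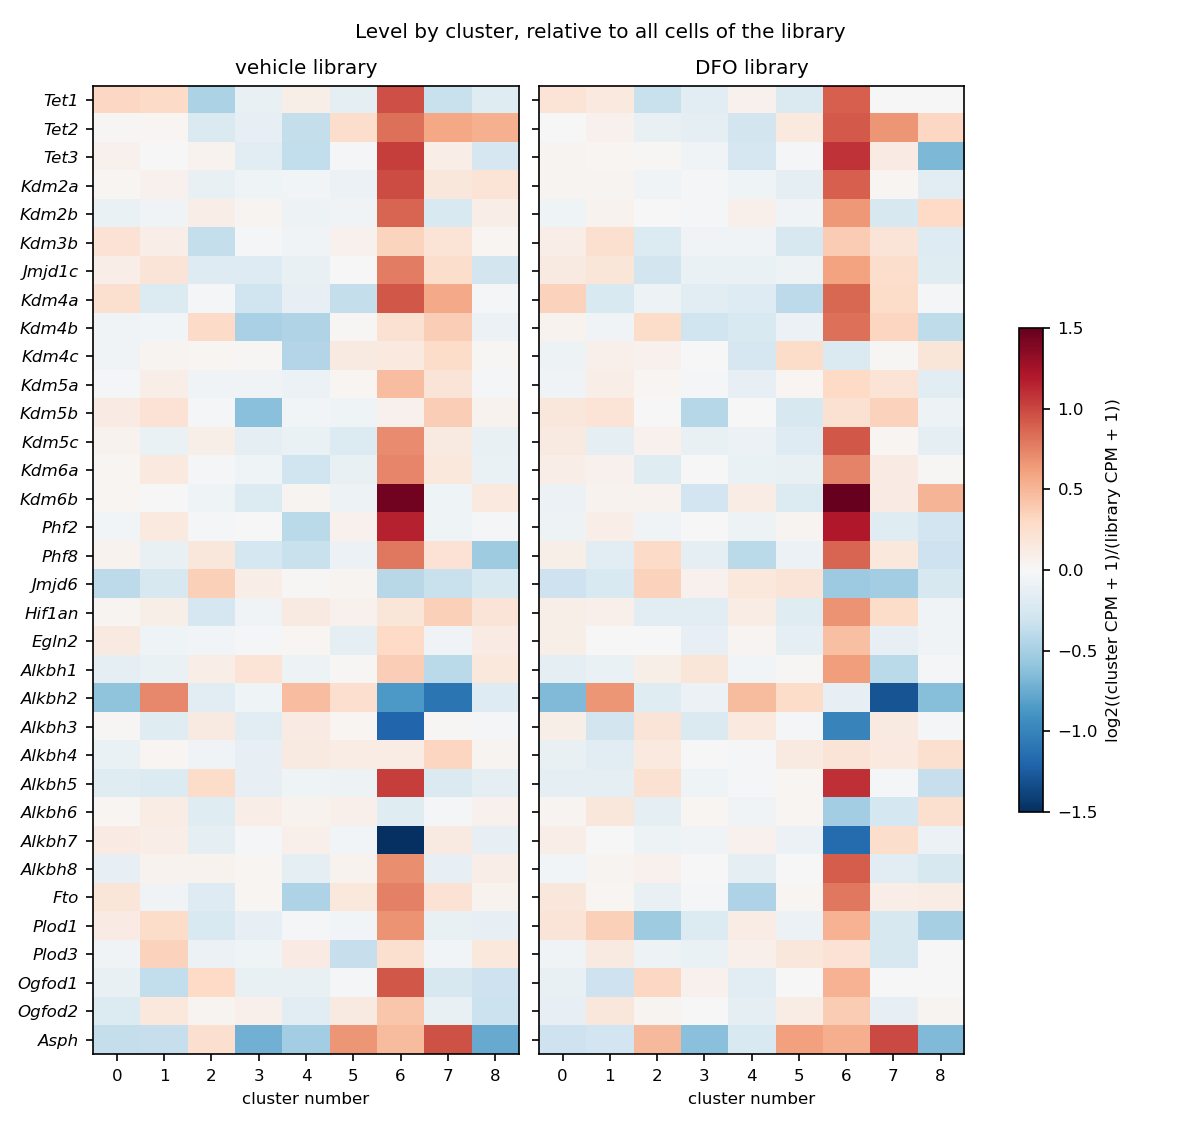
Level of each of the 34 genes in each cluster relative to its library, as a log2 ratio with 1 CPM added, in the vehicle (left) and DFO (right) libraries. Red is higher and blue lower than the library as a whole. Column 6 is the shallow cluster, in which Kdm6b is highest and Alkbh7 lowest in both libraries. Asph and Alkbh2 vary most among the other columns.

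The shallow cluster held 4.88% of cells in each library. Relative to the other cells of its library, 17 of the 34 genes were higher there by 0.5 or more in both libraries, beside 28.3% of all genes, and 2 were lower, beside 18.7%. Kdm6b had 36.76 CPM there against 12.52 CPM in other vehicle cells (1.48), and 35.52 against 11.04 CPM in DFO (1.60). Phf2 followed at 1.18 and 1.24, and then Tet3 and Alkbh5, each at 1.06 and 1.12. The 2 lower genes were Alkbh7, at -1.57 and -1.17, and Alkbh3, at -1.21 and -1.01. Beside these, the mitochondrial transcript mt-Co1 differed by 0.87 and 0.98, nuclear Malat1 by 0.38 and 0.28, Neat1 by 0.63 and 0.87, and Kmt2d, a leading gene of the cluster, by 1.90 and 1.87. The part of depth and RNA quality in these values was not tested. Without the shallow cluster the difference between libraries stayed at -0.26 for Kdm5b and 0.16 for Tet1, and was 0.17 for Alkbh1.

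Marrow of both sexes was in the pool, as read from transcripts: 54.6% of vehicle and 53.3% of DFO cells were called female, with Xist and no Y-linked transcript, and 31.8% and 33.2% were called male. A further 2.42% and 3.4% carried both kinds of transcript, and the rest were not called. Sex matters for the listed genes because Kdm5c and Kdm6a escape X inactivation and have the Y-linked homologs Kdm5d and Uty. These were the 2 of the 34 genes that were higher in female cells by 0.25 or more in both libraries, beside 0.214% of all genes. None of the 34 was higher in male cells by that much, beside 0.0788% of all genes.

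Kdm6a had 24.73 CPM (23.92 to 25.56) in female and 15.18 CPM (14.35 to 16.04) in male vehicle cells, a difference of 0.67. The DFO library gave 24.08 and 14.87 CPM, a difference of 0.66. Kdm6a was higher in female cells in each of the 9 clusters of both libraries, by 0.57 to 0.76 in vehicle and 0.40 to 1.21 in DFO. Kdm5c had 37.2 CPM (36.21 to 38.22) in female and 27.56 CPM (26.44 to 28.71) in male vehicle cells, and 36.74 and 27.17 CPM in DFO, a difference of 0.42 in each. It was higher in female cells in all clusters except cluster 8 of the vehicle library (-0.32), which held 69 female and 17 male cells. Phf8, the third X-linked gene on the list, had overlapping intervals between the sexes in both libraries, at -0.07 and 0.02.

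The male cells also carried the Y-linked homologs. Kdm5d stood at 15.83 CPM in the male cells of each library, and Uty at 13.59 and 13.63 CPM. Kdm5d made up 36.5% and 36.8% of the male sum with Kdm5c, and Uty 47.2% and 47.8% of that with Kdm6a. The male call used molecules of both homologs, so their levels in male cells are not independent of it. The sum of Kdm5c and Kdm5d was 43.38 CPM (41.98 to 44.82) in male vehicle cells, against 37.2 CPM in female cells, where Kdm5d is absent by the calling rule. The DFO library gave 43 and 36.74 CPM. The sum of Kdm6a and Uty was 28.77 CPM (27.63 to 29.94) in male and 24.73 CPM in female vehicle cells, and 28.5 and 24.08 CPM in DFO. Male sums thus lay above female ones by 0.21 to 0.23 on the log2 scale. When cells were called from Xist, Ddx3y and Eif2s3y alone, so that neither homolog was used, the female minus male log2 differences of the sums were -0.17 for both pairs in vehicle, and -0.18 for Kdm5c with Kdm5d and -0.16 for Kdm6a with Uty in DFO. Female cells then held 24 Kdm5d molecules in each library, and 21 and 28 Uty molecules. In male cells Kdm5d then made up 34.6% of its sum in vehicle and 35.2% in DFO, and Uty 44.9% and 45.7%.

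**Figure D5:**
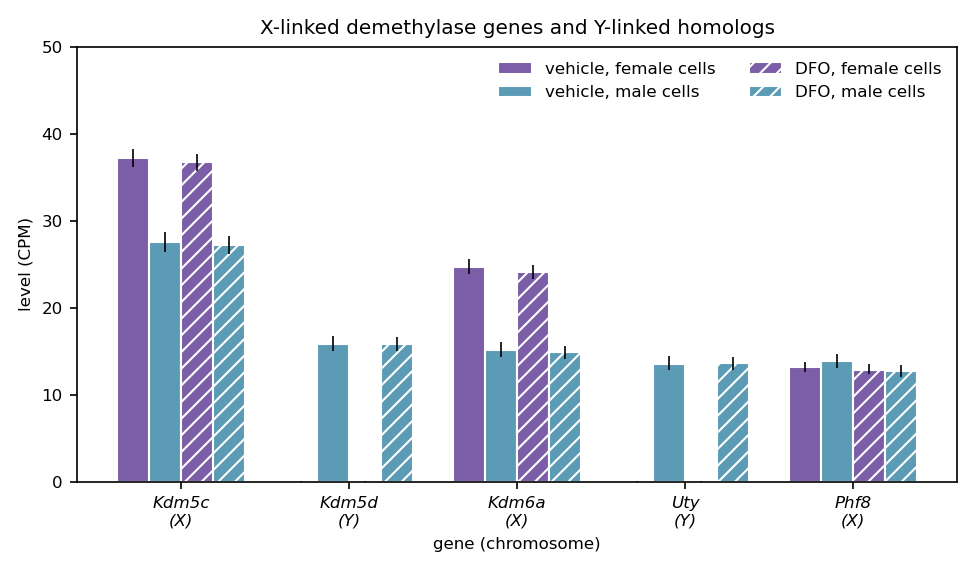
Level in CPM of the X-linked genes Kdm5c, Kdm6a and Phf8 and of the Y-linked homologs Kdm5d and Uty, in cells called female (purple) and male (blue), with the vehicle library in plain and the DFO library in hatched bars. Error lines are exact 95% Poisson intervals. Kdm5c and Kdm6a are higher in female cells in both libraries, Phf8 overlaps, and the homologs are at 0 in female cells because the call required it.

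The differences between libraries were alike in sign in female and male cells for 26 of the 34 genes. The share over all genes was not computed, and cells of both sexes came from the same libraries. The count therefore does not set these genes apart from others. The difference of Kdm5b was -0.27 for female and -0.24 for male cells, that of Tet1 0.14 and 0.21, and that of Alkbh1 0.16 and 0.18. Whether these differ between the sexes could not be tested with 1 library per condition.

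Other dioxygenases of the superfamily were looked up from a second list, of which 23 were in the tables and 13 reached 5 CPM. In DFO 9 were higher and 4 lower, with a median of 0.04, and none passed 0.25. Over all 8886 genes, 5144 were higher and 3742 lower, with a median of 0.019. By 0.25 or more, 1.4% of all genes were higher and 2.58% lower. The ribosomal oxygenases Riox1 (42.63 and 47.63 CPM) and Riox2 (46.89 and 52.08 CPM) and the HIF prolyl hydroxylase Egln1 (63.16 and 68.8 CPM) were higher by 0.16, 0.15 and 0.12. Lower values were those of the collagen prolyl hydroxylase P4ha1 (33.12 and 30.25 CPM, -0.13), the H3K9 demethylase Kdm3a (16.7 and 15.26 CPM, -0.12), Egln3 (77.41 and 72.15 CPM, -0.10) and Jmjd8 (6.66 and 6.43 CPM). The other 6, Kdm5d, Uty, Tyw5, Plod2, Phyh and Ogfod3, were higher by less than 0.1. For the Y-linked Kdm5d and Uty the differences in male cells alone were -0.00012 and 0.0037. Cells called male made up 31.8% of vehicle and 33.2% of DFO cells. Under 5 CPM, the other genes that reached 1 CPM were Hspbap1, Jmjd4, Jmjd7, P3h1, P3h2 and P3h3, of which P3h2 had 4.44 CPM in vehicle and 3.16 CPM in DFO, a difference of -0.39.

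Genes that supply the co-substrate or counter the marks were also summarised. Of 19 genes for 2-oxoglutarate supply and competing metabolites at 5 CPM or more, 12 were higher and 7 lower in DFO, with a median of 0.04. Of all 8886 genes, 5144 were higher and 3742 lower, with a median of 0.019. Sdhd, a subunit of succinate dehydrogenase, differed by 0.34 and Psat1, a serine synthesis enzyme that yields 2-oxoglutarate, by 0.21, while Sdhb differed by -0.19 and Idh1 by -0.17. Among 21 histone methyltransferase genes and partners, 11 were higher and 10 lower. The lowest was Jarid2, a JmjC protein without demethylase activity and a partner of Polycomb repressive complexes, with 46.98 and 35.6 CPM, a difference of -0.39 that was -0.21 with equal cluster shares. Ezh1 differed by -0.14, Eed by 0.19 and Nsd2 by 0.13.

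Of 9 DNA methylation writers and readers 7 were higher and 2 lower, with Uhrf1 at 0.22, Dnmt3b at 0.19, Dnmt3a at -0.02 and Mbd2 at -0.10. Of 12 m6A writers and readers 7 were higher and 5 lower, with Ythdf3 at 0.13, Mettl14 at 0.11, Rbm15 at -0.14 and Igf2bp3 at -0.15. The HIF pathway partners at 5 CPM or more were Hif1a (41.47 and 45.15 CPM, 0.12), Vhl (8.88 and 9.13 CPM, 0.04) and Arnt (10.45 and 10.65 CPM, 0.03). All 3 were higher in DFO, as were 5144 of all 8886 genes. Intervals lay apart for Hif1a alone, and Vhl and Arnt were at -0.03 and -0.07 with cells thinned to 10000 molecules. Kdm1a, the flavin-dependent H3K4 demethylase that needs neither iron nor 2-oxoglutarate, had 70.77 and 65.84 CPM, a difference of -0.10.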

How the data were processed

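Single-cell RNA was measured in 1 vehicle and 1 DFO library, 20000 cells loaded for each and 2 BGISEQ-500 lanes per library, per the labels' protocols. Per the submitters' processing notes, Trim Galore 0.6.5, FastQC 0.11.9, Cell Ranger 3.0.2 and the mm10 build were used. Annotation and cell filter were not given in the sources used here. The authors deposited natural log values per gene and cell. Every nonzero value came out whole within 0.05 of a molecule when read as ln(1 + 27408 × molecules / cell total), so molecules were recovered and summed. No count model was run, because each group has 1 library.

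Cells were clustered on 2000 variable genes without the listed and other dioxygenases, sex, cell cycle, mitochondrial and ribosomal genes (30 principal components, 15 neighbours, Leiden resolution 0.5). A name needed at least 2 markers of a type among the 10 leading genes. A doublet caller marked 3 vehicle and 2 DFO cells (0.0345% and 0.0203%) and so did not work, and no cells were removed. An alternative left out 820 and 925 likely doublets. These were the 762 and 817 cells with the highest scores of the same caller, together with cells that carried transcripts of both sexes. It is therefore not an independent check for doublets. Female calls needed at least 5 molecules of Xist and 0 of Ddx3y, Eif2s3y, Kdm5d and Uty together, male calls at most 1 and at least 2.

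Coordinates came from GENCODE M21 (GRCm38), and promoters from RefSeq. Kdm2b, Jmjd6, Alkbh3, Alkbh6 and Plod3 share exon sequence on their strand with another annotated gene, so their counts are less certain. Members, lists and most alternatives were chosen with earlier results of these data known. Every member is named, as are other dioxygenases at 1 CPM or more, the 2 highest and 2 lowest genes of each other list at 5 CPM or more, and leading genes of clusters. Genes outside that rule were chosen after their values were seen, namely Cd48 and the comparison genes of the shallow cluster. Tools were Python 3.11.15, numpy 2.4.6, scipy 1.17.1, pandas 2.3.3, scikit-learn 1.9.0, scanpy 1.11.5, anndata 0.12.19, leidenalg 0.10.2, igraph 0.11.9 and matplotlib 3.10.9. The difference step was tested on simulated data.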

Additional observations from a re-analysis of the deposited data

How the results depend on the processing

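The 15 alternatives for the difference between libraries kept the sign of 26 of the 38 genes. Some of them could not change a sign. The minimums of 1 and 20 CPM left the difference of each gene as it was, and the pseudocounts of 0.1 and 10 CPM change only its size. Kdm5b ranged from -0.29 to -0.22, Alkbh1 from 0.16 to 0.20, Tet1 from 0.11 to 0.21, Tet2 from -0.18 to -0.09 and Asph from -0.18 to -0.02. The 12 genes that took both signs were Tet3, Kdm2b, Kdm3b, Kdm4b, Phf8, Jmjd6, Egln2, Alkbh7, Plod1, Plod3, Ogfod1 and Tmlhe. The number of the 34 genes lower by 0.25 or more was 0 in place of 1 with a pseudocount of 10 CPM, with equal cluster shares and with male cells alone. With a minimum of 1 CPM, 1 other dioxygenase, P3h2, was lower by that much, in place of 0. No scaling moved the median of all genes by more than 0.1. Over all genes, 124 were higher and 229 lower by 0.25 or more. These numbers were 34 and 114 with a pseudocount of 10 CPM, 75 and 130 with equal cluster shares, 201 and 378 with a minimum of 1 CPM, and 60 and 95 with a minimum of 20 CPM. The number of the 34 genes called for a 1.5-fold span across clusters was 6, beside 22.7% of all genes. At resolution 0.25 it was 3, beside 12.5% of all genes. With cells thinned to 10000 molecules it was 1, beside 18.3% of all genes. A minimum of 20 CPM left 18 genes, of which 3 were called, beside 21.7% of all genes. Resolution 1 gave 5, beside 18.8%, and 15 principal components gave 7, beside 21.6%, not all of them the same genes. The log2 span of Kdm5b in vehicle was 0.18 at resolution 0.25, in place of 0.99. The cause was not tested at resolution 0.25 or with thinned cells. Kdm5c and Kdm6a stayed the 2 genes higher in female cells under all 8 alternatives, 0.33 to 0.48 and 0.45 to 0.70. The alternatives without the shallow cluster and with sex called from 3 genes were chosen after seeing the data. No paired analysis was possible because each group has 1 library and the labels carry no replicate numbers. Depth limits values within small clusters: Alkbh2 had 11 to 20 molecules in cluster 8.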
